A study of Rattus norvegicus with 24 samples.

Results

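Gene expression was compared between whole lungs of rats given silica particles at 200 mg/mL and of rats given normal saline, both taken at day 28. The comparison uses 12 of the 24 libraries of the series, 6 with silica and 6 with saline, chosen by their labels for treatment and day; the other 12 libraries are of day 14 and enter only 1 alternative fit. All animals were male Wistar rats of 5 to 6 weeks and 170 to 190 g, kept free of specific pathogens, and both agents were delivered into the trachea. The labels number the libraries of a group as biological replicates 1 to 6 and name no genetic change, no batch and no untreated group. The instilled volume and the particle size are not given in the sources used here. The lung is a mixture of many cell types, so fewer cells of a type and less RNA per cell cannot be told apart in any value below.

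Crystalline silica that reaches the alveoli is taken up by macrophages, which it injures, and the lung answers with inflammation and, over weeks, with fibroblast activation and deposition of collagen. Silicosis, the human disease, is known for fibrotic nodules that go on to grow after exposure has stopped. Genes of matrix, of its basement membranes, of macrophages and of the epithelium that lines the alveoli and airways are therefore the natural places to look in such a lung.

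Expression is given as FPKM, fragments scaled to gene length and library size, so that levels may be set beside each other between genes. Changes are differences of group means of log2(FPKM + 1), silica minus saline, which understate the change of genes with low values. A gene was called higher or lower at a Benjamini-Hochberg adjusted p under 0.05 in limma over all 19152 genes with at least 0.5 FPKM in at least 6 of the 12 libraries. Depth, as whole reads recovered from the FPKM steps, was 55.1 to 66.8 M (mega) reads per library. Its mean was 61.0 M with saline and 64.8 M with silica (two-sided exact permutation p = 0.0368). The part of depth in the calls was not tested. Across genes, which are not independent replicates, log2 values of libraries within a group correlated at 0.924 to 0.965 for saline and 0.922 to 0.972 for silica.

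Libraries of both groups stood apart before any gene was tested. Mitochondrial genes took 8.93%, 5.66%, 4.41%, 2.77%, 4.08% and 7.37% of reads in saline replicates 1 to 6, and 4.10%, 2.49%, 2.70%, 2.13%, 2.37% and 2.60% in silica replicates 1 to 6. The means were 5.53% ± 2.28 (SD, n = 6) with saline and 2.73% ± 0.699 with silica (two-sided exact permutation p = 0.00649, the smallest possible being 0.00216). Saline replicates 1 and 6 were the highest, followed by saline replicate 2. Silica replicates 2 to 6 were below the lowest saline library, and silica replicate 1 lay inside the saline range. Silica replicate 1 also carried transcripts of striated muscle. The summed level of the skeletal muscle list, whose Acta1 and Ckm encode muscle actin and creatine kinase, was 22793 FPKM there against 109 to 132 in the other silica libraries and 66.8 to 146 with saline. Its cardiac muscle list summed to 4202 FPKM against 20.9 to 166 in the other silica libraries. Markers of basal and squamous epithelium summed to 3892 FPKM in the same library and to 311 to 536 in the other 11. Results below are therefore also given without saline replicates 1, 2 and 6 and silica replicate 1, called the 8 remaining libraries. In these, every silica library was still below every saline library in mitochondrial percent. Leaving out the 4 libraries thus makes that difference smaller but does not remove it, and treatment cannot be told apart from it there.

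**Figure D1:**
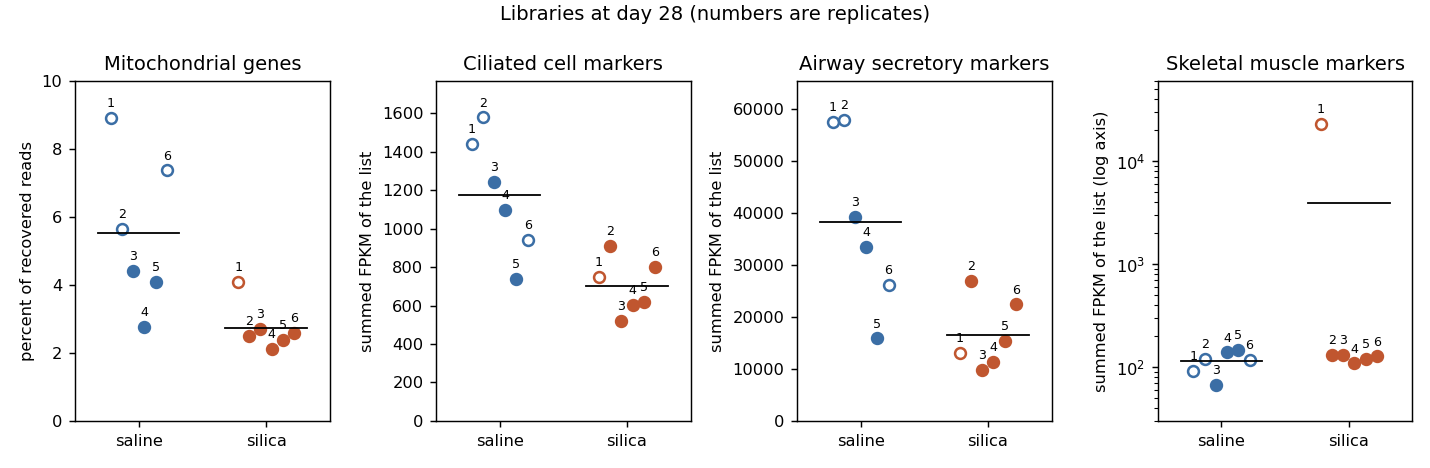
Percent of recovered reads on mitochondrial genes and summed FPKM of ciliated, airway secretory and skeletal muscle markers in each library at day 28, with saline and silica side by side; numbers are replicates, black lines are group means, open symbols are saline replicates 1, 2 and 6 and silica replicate 1, and the last axis is logarithmic. Skeletal muscle markers reach 22793 FPKM in silica replicate 1 and at most 146 elsewhere, and saline replicates 1 and 2 have the highest ciliated and secretory sums.

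With all 12 libraries 660 genes were called, 3.45% of those tested, with 350 higher (1.83%) and 310 lower (1.62%) with silica. The median size of change among them was 0.76 on the log2 scale, and changes of at least 1 were found in 95 of those higher and 103 of those lower. All silica libraries exceeded all saline libraries in 345 genes, 1.8% of those tested, and fell short of them in 245 genes, 1.28%, and 364 of the 660 calls were without overlap in this sense. At an unadjusted p under 0.05 there were 5097 genes. Called genes had shorter gene models, with a median recovered length of 1742 bases for the higher and 1619 for the lower ones against 2137 for all tested genes; the part of length in the calls was not tested.

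The number of calls rested on which libraries were in the fit. Of the 660 calls, 439 had an adjusted p of 0.04 or more. Leaving out saline replicates 1 to 6 in turn gave 95, 85, 151, 649, 2582 and 187 calls, and leaving out silica replicates 1 to 6 gave 390, 205, 53, 79, 129 and 215. Without saline replicates 1, 2 and 6 only 30 genes were called (0.157%), 25 higher and 5 lower, and 27 of them were among the 660. The 8 remaining libraries gave 39 calls (0.204%), 34 higher and 5 lower, with 31 among the 660. Without the other 3 saline libraries, replicates 3, 4 and 5, there were 4445 calls, 1769 higher and 2676 lower. All 660 genes kept their direction in the 8 remaining libraries, where 635 had an unadjusted p under 0.05 and the median size of change was 0.59. Of all 19152 tested genes 2771 had an unadjusted p under 0.05 in limma there. The 8 libraries are among the 12 that gave the calls, so this is no separate support for them. Below, called genes are given with the number of the 12 fits leaving out 1 library in which they were called. The median over the 660 genes was 3, and 50 genes were called in all 12. Counts of called members in a gene list are to be read beside the shares of all tested genes, 1.83% higher and 1.62% lower with all libraries.

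**Figure D2:**
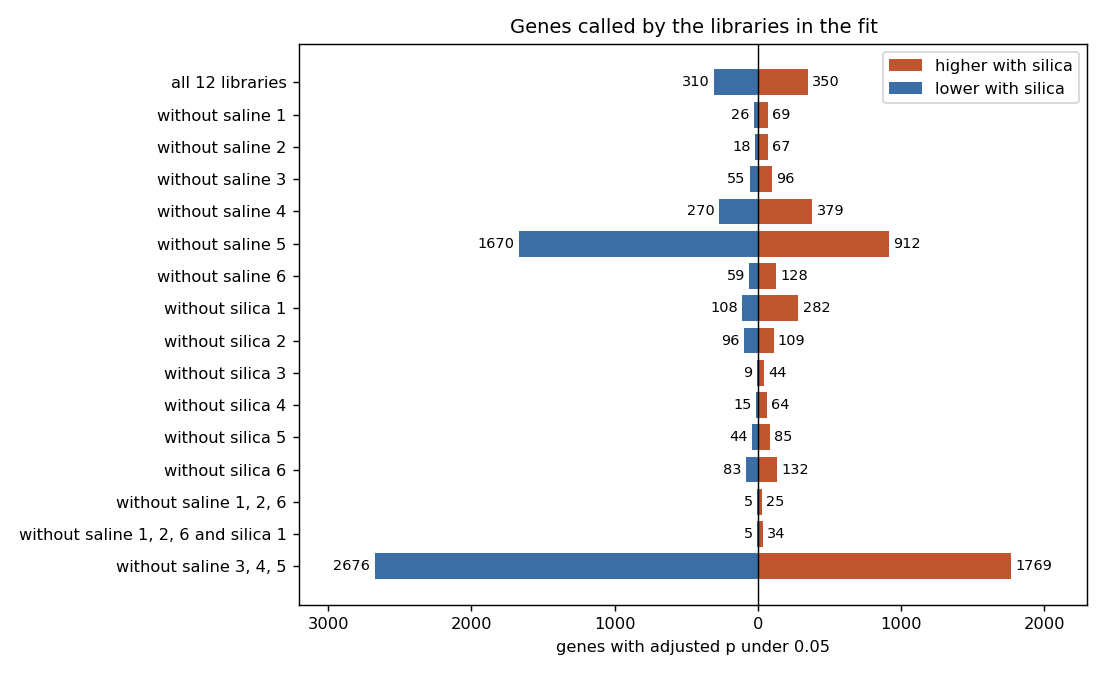
Number of genes with an adjusted p under 0.05 in limma, higher with silica to the right and lower to the left, in fits that use all 12 libraries of day 28 or leave out the libraries named on the vertical axis. The count is 660 with all libraries, 53 without silica replicate 3, 2582 without saline replicate 5 and 39 without the 4 libraries that stood apart.

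H1fx, which encodes a linker histone that binds DNA between nucleosomes (ENSRNOG00000027722), had the lowest adjusted p of the genes with an assigned symbol. Its level was between 10.8 and 13.5 FPKM in the 6 saline libraries, with a median of 11.6, and between 21.9 and 34.1 in the silica libraries, with a median of 28.0. The groups were far apart and saline varied little. The change was 1.15 (SE 0.10, adjusted p = 0.0002), or 1.09 in the 8 remaining libraries (adjusted p = 0.0238), and it was called in all 12 fits. Nr2f6, an orphan nuclear receptor that represses transcription, was at 7.21 to 12.2 FPKM with saline and 19.4 to 23.3 with silica, without overlap. Its change was 1.06 (SE 0.12, adjusted p = 0.00166), or 1.21 without the 4 libraries, and it was called in all 12 fits.

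Of the genes called with all libraries, 11 with an assigned symbol also had an adjusted p under 0.05 in the 8 remaining libraries, 8 higher and 3 lower. Besides H1fx and Nr2f6, these rises were in Ccdc71l, a coiled-coil gene, at 1.37 (SE 0.20) with all libraries and 1.52 in the 8 remaining ones, in Gm23880 at 1.28 and 1.41, in Dact3, an inhibitor of Wnt signalling, at 1.20 and 1.29, in Adra1a, the alpha-1A adrenergic receptor, at 1.11 and 1.28, in Cobl, an actin nucleator, at 0.87 and 0.73, and in Hsd17b4, a peroxisomal enzyme of fatty acid oxidation, at 0.65 and 0.49. Ccdc71l and Gm23880 were called in all 12 fits that leave out 1 library, Hsd17b4 in 7, and Dact3, Adra1a and Cobl in 4 each. The last 3 were not called once saline replicate 1, 2 or 3 or any silica library but replicate 1 had been left out, with 0.75 or more in Cobl and above 1 in the other genes.

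The 3 falls of this kind were in Ddhd1, Egfr and Srsf7. Ddhd1, a phospholipase that acts on phosphatidic acid (adjusted p = 9.31e-04), was at 3.93, 4.67, 5.72, 4.01, 4.17 and 9.58 FPKM in saline replicates 1 to 6 and at 0.574, 1.04, 1.28, 0.656, 0.734 and 0.660 in silica replicates 1 to 6. Every silica library was below every saline library, and saline replicate 6 was high. The change was -1.75 (SE 0.19), or -1.59 in the 8 remaining libraries. Egfr, the receptor for epidermal growth factor, which drives epithelial growth and repair, was at 3.03 to 4.88 FPKM with saline and 1.42 to 2.37 with silica. Its change of -0.82 (SE 0.12, adjusted p = 0.00885) was larger in the 8 remaining libraries, at -1.02 (adjusted p = 0.0181), and both genes were called in all 12 fits. Srsf7, a splicing factor, had -0.74 (SE 0.14, adjusted p = 0.0267), or -0.68 in the 8 remaining libraries, and was called in 8 fits; the silica libraries were at 18.8 to 29.1 FPKM, all below the lowest saline value of 29.2, with silica replicate 1 close to it.

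Of the 50 genes called in all 12 fits, 41 were higher and 9 lower, and in all 50 the groups did not overlap. Only 20 of them carried an assigned gene symbol, 17 higher and 3 lower, the latter being Fos, Ddhd1 and Egfr. The share without one was 60%, against 43.2% of all calls and 31.4% of the genes tested. Among the named ones, 5 were picked after their values had been seen. Agps, which makes ether lipids in peroxisomes, had 1.06 (SE 0.15), Gas1, a membrane protein of growth arrest and a Hedgehog co-receptor, 1.08 (SE 0.14), and Prkca, protein kinase C alpha, 0.99 (SE 0.16). Fancf, a subunit of the Fanconi anaemia complex of DNA repair, had 0.91 (SE 0.13) and Adcy2, an adenylate cyclase, 0.62 (SE 0.09). In the 8 remaining libraries these 5 genes had 0.89, 0.93, 0.76, 0.93 and 0.52, and none of the 5 was called there. The most abundant of the 50 was a gene with the provisional name AABR07063462.1, also picked after its values had been seen. It was at 308 to 731 FPKM with saline, and at 790, 2853, 5679, 2594, 2630 and 4181 in silica replicates 1 to 6. Silica replicate 1 was just above the saline range and the other 5 far above. A second provisional gene, AABR07063425.1, went from 107 to 267 FPKM with saline to 350 to 2438 with silica, again lowest in silica replicate 1. Their changes were 2.60 (SE 0.39) and 2.72 (SE 0.39), and 2.98 and 3.10 in the 8 remaining libraries. Neither name is annotated in the tables used here.

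**Figure D3:**
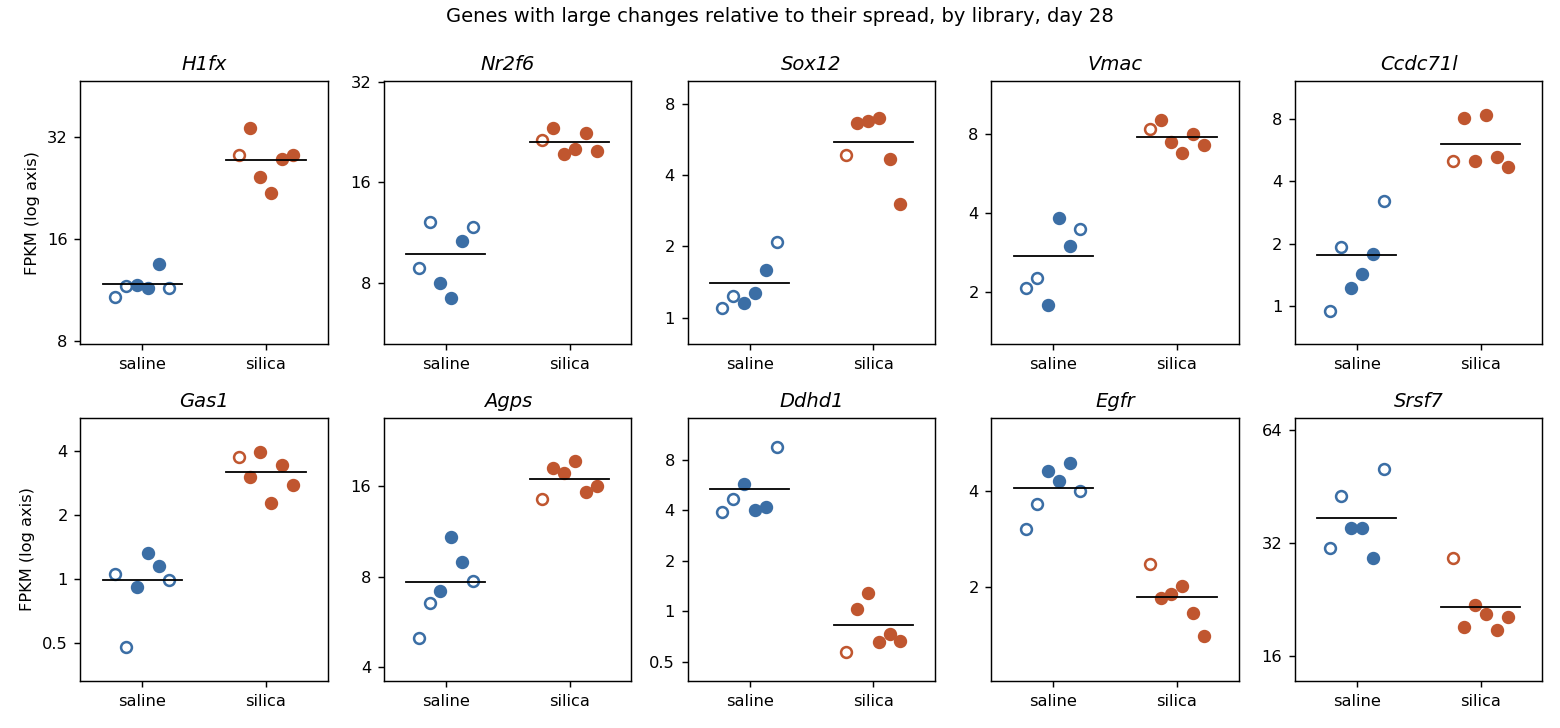
FPKM per library (log axis) of 10 genes in saline and silica lungs at day 28, 6 libraries a side; black lines are group means and open symbols are saline replicates 1, 2 and 6 and silica replicate 1. In each gene the groups do not overlap, the closest pair being 29.1 against 29.2 FPKM in Srsf7.

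The largest rises that also held their direction at an unadjusted p under 0.05 in the 8 remaining libraries were led by Aqp3, an aquaglyceroporin of epithelia. It was at 0.258 to 2.02 FPKM with saline and at 45.5, 16.7, 3.37, 6.24, 9.79 and 2.46 in silica replicates 1 to 6. Silica replicate 1, the library with squamous and muscle transcripts, was the highest. The change was 2.49 (SE 0.53, adjusted p = 0.0399), and 1.78 in the 8 remaining libraries, and the gene was called in 4 of 12 fits. Mafa, a transcription factor known from pancreatic beta cells, was likewise highest in silica replicate 1, at 11.1 FPKM against 1.24 to 3.70 in the other silica libraries and at most 0.533 with saline; its change was 1.42 (adjusted p = 0.0455), or 1.07 in the 8 remaining libraries, and it was called in 2 fits. Tmem158, a membrane protein induced by Ras, rose by 1.88 (SE 0.36, adjusted p = 0.0285), or 1.51 without the 4 libraries, and was called in 5 fits. Its saline values fell apart, with 0.229 to 0.688 FPKM in replicates 1, 2 and 3 and 3.17 to 4.81 in replicates 4, 5 and 6. Zfp771, a zinc finger gene, rose by 1.56 (SE 0.28, adjusted p = 0.0220), Sox12, an SRY-box transcription factor, by 1.41 (SE 0.18, adjusted p = 0.00263), and Vmac, a coiled-coil gene, by 1.26 (SE 0.15, adjusted p = 0.00166), with 1.5, 1.46 and 1.20 in the 8 remaining libraries. Sox12 and Vmac were called in all 12 fits and Zfp771 in 9.

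In Fam172a the silica libraries fell into separate ranges. Replicates 1, 3 and 4 were at 31.9, 32.4 and 33.1 FPKM and replicates 2, 5 and 6 at 10.2, 9.23 and 7.41, against 3.56 to 6.88 with saline. Its change of 1.60 (SE 0.38, adjusted p = 0.0452), or 1.22 in the 8 remaining libraries, was called in 3 of 12 fits. Rtn4, the endoplasmic reticulum shaping protein Nogo, was at 19.5 to 38.4 FPKM with saline and 40.0 to 100.04 with silica. It rose by 1.18 (SE 0.22, adjusted p = 0.0269), or 0.82 in the 8 remaining libraries, and was called in 7 fits.

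Falls of this kind beside Ddhd1 were led by immediate early genes, described next, and included Tex26 at -1.09, Bok, a BCL2 family member, at -1.07, and Pik3r2, a regulatory subunit of phosphoinositide 3-kinase, at -0.98, which were called in 5, 5 and 3 of 12 fits and had -0.73, -0.99 and -0.67 in the 8 remaining libraries. Another 4 of the 12 were genes named after a mitochondrial sequence record. In all, 6 of the 21 tested genes with such a name were called, all 6 lower with silica. They are counted in the mitochondrial percent, so their fall and that of the percent are not separate results.

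Immediate early genes are transcribed within minutes of a growth, stress or handling signal, without new protein synthesis, and encode transcription factors such as FOS, JUN and EGR1 and feedback proteins such as ZFP36. Of the 30 genes of this list 27 were tested, 7 were lower (25.9%, against 1.62% of all tested genes), none was higher and 20 were not called. The median change was -0.39, with 19 of 27 members below 0, against a median of -0.03 over all tested genes, of which 46.7% were above 0. The median was -0.36 in the 8 remaining libraries, but no member was called there, and without saline replicates 1, 2 and 6 alone 1 was. The same holds more widely: in none of the 49 lists was a member called in the 8 remaining libraries. In 5 of the 27 tested immediate early genes every silica library was below every saline library, against 1.28% of all tested genes.

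Fos, which encodes a subunit of the AP-1 factor (ENSRNOG00000008015), was at 10.7, 30.9, 13.4, 22.3, 31.8 and 29.7 FPKM in saline replicates 1 to 6 and at 4.91, 6.94, 3.54, 3.25, 6.14 and 4.71 in silica replicates 1 to 6. The lowest saline library was above the highest silica library. The means were 23.1 ± 9.27 and 4.92 ± 1.44 FPKM (SD, n = 6), a ratio of saline to silica of 4.70. The change of -1.96 (SE 0.27, adjusted p = 0.00561) was called in all 12 fits, and it was -1.95 both without saline replicates 1, 2 and 6 and in the 8 remaining libraries, where the adjusted p was 0.0551. Egr1, a zinc finger factor, was at 17.3, 55.0, 18.6, 37.5, 62.7 and 31.2 FPKM with saline and 12.7, 12.7, 8.34, 7.40, 14.0 and 10.5 with silica. Saline replicates 1 and 3 were the lowest of their group in both genes, and still above silica. Its change was -1.55 (SE 0.30, adjusted p = 0.0285), and -1.68 in the 8 remaining libraries.

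Junb, another AP-1 subunit, had 113 FPKM ± 29.8 with saline and 57.4 ± 10.5 with silica, a change of -0.94 (SE 0.18, adjusted p = 0.0269). The lowest saline value was 76.2 and the highest silica value 76.0, so that the groups only just stayed apart. Rgs1, an inhibitor of G protein signalling in leukocytes, had -1.15 (SE 0.22, adjusted p = 0.0266). Egr1 and Junb lost their call when saline replicate 2 or 6 or silica replicate 3 or 4 was left out, with Egr1 at -1.37 or further from 0 in every fit. Rgs1 lost it when saline replicate 2 or silica replicate 3, 4 or 5 was left out. Zfp36, which binds and destabilises AU-rich mRNA, and Fosb, a further AP-1 subunit, had -1.07 (SE 0.24) and -1.14 (SE 0.28) and were called in 3 and 2 of 12 fits, and Klf6, a zinc finger factor, had -0.42 and was called in 2. Without the 4 libraries Junb, Rgs1, Zfp36, Fosb and Klf6 were at -0.92, -1.07, -0.69, -1.07 and -0.36. Nr4a1, an orphan nuclear receptor, missed the threshold on the same side (-1.06, adjusted p = 0.0698). So did Atf3, a stress-induced bZIP factor (-1.01, adjusted p = 0.0590), and Jun (-0.63, adjusted p = 0.0774), while Egr2 was at -0.21 (adjusted p = 0.436). All of these were picked after their values had been seen. Among the 27 tested members 8 were above 0, the highest at 0.44.

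**Figure D4:**
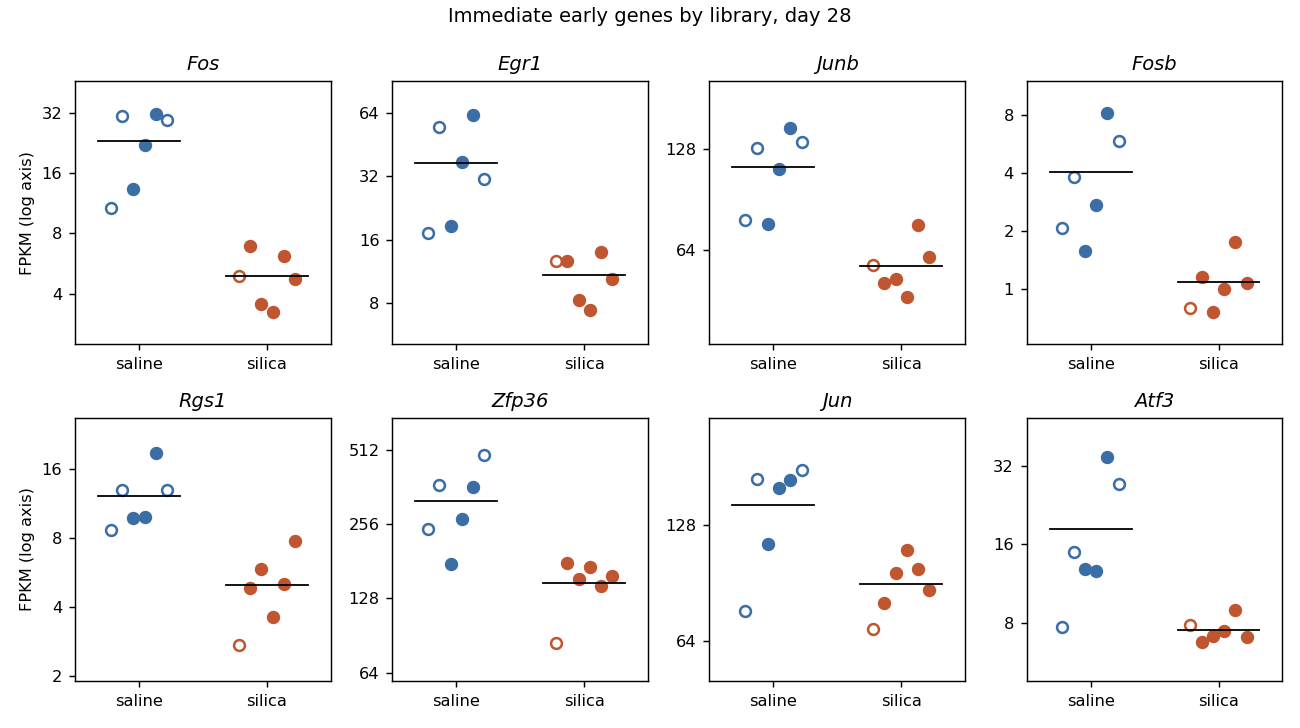
FPKM per library (log axis) of 8 immediate early genes in saline and silica lungs at day 28, 6 libraries a side, with black lines for group means and open symbols for saline replicates 1, 2 and 6 and silica replicate 1. Fos lies between 10.7 and 31.8 FPKM with saline and between 3.25 and 6.94 with silica; Atf3 and Jun overlap.

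The upstream sequences of these genes are shown because 7 of these genes were called lower and none higher, and the known switch of several of them, the CArG box bound by serum response factor, can be read in them. Sequences of RefSeq on the build GRCr8, which is not the build of the expression files, covered 21 of the 30 genes, among them 6 of the 7 called ones; Fos is not in that table. In the 250 bases before the gene start, a CArG box was found in 5 of the 21 and in 3 of the 6 called genes, against 1.5% of 33469 promoter windows of the same length. The motif TGACG, the core of the cAMP response element, searched on both strands, was found in 15 of the 21 and in 3 of the 6, against 18.2% of all windows. The patterns cannot overlap each other. Capitals mark both motifs below. Egr1 lies on chr18:26736828-26737077 (plus strand) with 2 CArG boxes and 2 matches to TGACG, Zfp36 on chr1:92799109-92799358 (minus strand) with 1 CArG box, and Junb on chr19:40080876-40081125 (plus strand) with 1 match to TGACG.
Egr1: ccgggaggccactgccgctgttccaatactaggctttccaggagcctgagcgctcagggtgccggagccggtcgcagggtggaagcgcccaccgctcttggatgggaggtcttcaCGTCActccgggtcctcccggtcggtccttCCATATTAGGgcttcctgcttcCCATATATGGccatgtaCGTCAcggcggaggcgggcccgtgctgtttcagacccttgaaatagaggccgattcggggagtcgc
Zfp36: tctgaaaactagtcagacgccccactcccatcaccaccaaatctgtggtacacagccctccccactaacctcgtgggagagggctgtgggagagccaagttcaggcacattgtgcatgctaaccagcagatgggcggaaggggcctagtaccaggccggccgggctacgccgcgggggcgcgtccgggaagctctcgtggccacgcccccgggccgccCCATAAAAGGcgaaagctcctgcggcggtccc
Junb: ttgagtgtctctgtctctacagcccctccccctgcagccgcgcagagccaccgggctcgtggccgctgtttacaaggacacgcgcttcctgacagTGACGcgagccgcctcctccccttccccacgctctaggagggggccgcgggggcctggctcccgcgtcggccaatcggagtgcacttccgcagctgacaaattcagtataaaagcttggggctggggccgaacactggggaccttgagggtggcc
Of the other called genes, Klf6 had 1 CArG box, Rgs1 had 1 match to TGACG, and Fosb had neither in this window. Egr2 and Dusp5, which were not called, had both.

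Peroxisome proliferator-activated receptors are nuclear receptors of fatty acids that switch on genes of fatty acid oxidation and storage. Of the 24 tested genes of their targets and of fatty acid oxidation, 4 were higher (against 1.83% of all tested genes), none was lower and 20 were not called; the median was 0.25, and 0.07 in the 8 remaining libraries. Angptl4, a secreted inhibitor of lipoprotein lipase, was at 1.25 to 3.28 FPKM with saline and at 4.88, 13.8, 7.16, 4.97, 5.47 and 5.16 in silica replicates 1 to 6. Silica replicate 2 was the highest, and no library of the groups overlapped. It rose by 1.38 (SE 0.24, adjusted p = 0.02), or 1.29 in the 8 remaining libraries. It lost its call without saline replicate 1 and without silica replicate 3, and lay between 1.18 and 1.49 over the 12 fits. Acot3, a peroxisomal acyl-CoA thioesterase, was at 0.112 to 1.82 FPKM with saline and 2.36 to 4.31 with silica, and its rise of 1.36 (SE 0.22, adjusted p = 0.0142), or 1.24 in the 8 remaining libraries, was called in all 12 fits. Cpt1a, the rate-limiting carnitine palmitoyltransferase of mitochondrial fatty acid uptake, rose by 0.86 (SE 0.18) and Acot2, a mitochondrial thioesterase, by 0.62 (SE 0.13); they were called in 4 and 3 fits and had 0.81 and 0.51 in the 8 remaining libraries. None of the 18 fatty acid synthesis and 23 cholesterol synthesis genes tested was called.

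Fibrillar collagen and other matrix genes were mostly higher with silica, by small amounts. Of 25 tested, 23 were above 0 and the median was 0.37 (0.31 in the 8 remaining libraries, with 20 above 0). Only 2 were called, both higher (8%, against 1.83% of all tested genes). Col3a1, the chain of type III collagen (ENSRNOG00000003357), was at 439 to 668 FPKM with saline and 710 to 1099 with silica, without overlap. Its change was 0.63 (SE 0.14, adjusted p = 0.0441), or 0.53 in the 8 remaining libraries. Fbn1, fibrillin of the microfibrils, had 0.48 (SE 0.12, adjusted p = 0.0483), with 0.46 in the 8 remaining libraries; the groups overlapped. Col1a1, a chain of type I collagen, had 0.42 (adjusted p = 0.0590) and was not called. The genes were called in 3, 2 and 1 of the 12 fits.

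Basement membranes are sheets of type IV collagen, laminin and nidogen under epithelium and endothelium. With all libraries their list had the highest median of those with at least 5 tested members outside the muscle lists, 0.52 over 17 genes, with 14 above 0. In the 8 remaining libraries it was 0.34, below the 0.35 of type 1 cell markers, and without saline replicates 1, 2 and 6 it was 0.30, below the 0.48 of basal and squamous markers. Nid1, which links laminin to collagen IV, rose by 0.61 (SE 0.13, adjusted p = 0.0348), Lamb1, a laminin chain, by 0.55 (SE 0.14, adjusted p = 0.0486), and Col4a5, a collagen IV chain, by 0.54 (SE 0.13, adjusted p = 0.0444), and the other 14 were not called. These 3 calls are 17.6% of the list, against 1.83% of all tested genes. Without silica replicate 1 alone 5 of the 17 were called, against 390 of all 19152 tested genes. In the 8 remaining libraries Nid1, Lamb1 and Col4a5 had 0.45, 0.34 and 0.50, and they were called in 4, 1 and 3 fits. Of 17 enzymes of collagen processing, 2 were higher (11.8%, against 1.83% of all tested genes) and 15 not called, with a median of 0.22, and 0.13 in the 8 remaining libraries. Adamts2, which removes the amino-terminal propeptide of fibrillar collagens, was at 10.5 to 14.5 FPKM with saline and 14.9 to 25.8 with silica, without overlap. Its change of 0.68 (SE 0.13, adjusted p = 0.0265) was 0.70 in the 8 remaining libraries and was called in 8 fits. Loxl4, a cross-linking lysyl oxidase, had 1.15 (SE 0.29, adjusted p = 0.0485), or 0.81 in the 8 remaining libraries, and was called in 1 fit.

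Mmp14, the membrane-bound collagenase that activates pro-MMP2, was the 1 called gene of 16 tested proteases and inhibitors (6.25%, against 1.83% of all tested genes called higher). It was at 9.64 to 16.5 FPKM with saline and 18.6 to 27.7 with silica, without overlap. The rise of 0.83 (SE 0.14, adjusted p = 0.0168) was called in 11 of the 12 fits that leave out 1 library, all but the one without silica replicate 3. It was 0.63 in the 8 remaining libraries, where it was not called (adjusted p = 0.0866). Timp3, an inhibitor bound to matrix, and Mmp2, gelatinase A, had 0.81 and 0.61 (adjusted p = 0.0562 and 0.0560). Without silica replicate 1 alone 3 of the 16 were called, against 390 of all 19152 tested genes. The median of this list, 0.28, was -0.03 without saline replicates 1, 2 and 6 and 0.05 in the 8 remaining libraries.

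The signalling lists each held a few called genes or none. Of 24 tested Wnt genes 4 were higher (against 1.83% of all tested genes) and none lower (median 0.39; 0.15 in the 8 remaining libraries). Frat2, which binds GSK3 and stabilises beta-catenin, was at 0.102 to 0.732 FPKM in 5 saline libraries and 3.82 in saline replicate 5, and at 3.27 to 8.18 with silica. Its rise was 1.79 (SE 0.32, adjusted p = 0.0211), or 1.4 in the 8 remaining libraries, and it was called in 9 fits. The receptor genes Fzd1 and Fzd2 rose by 0.54 (SE 0.12) and 0.82 (SE 0.20), and Wnt5a, a ligand of the beta-catenin-independent branch, by 0.44 (SE 0.11); these had 0.37, 0.57 and 0.35 in the 8 remaining libraries and were called in 3, 2 and 2 fits. Of 17 Notch genes the receptor Notch3, of mural cells, and Lfng, a glycosyltransferase that modifies Notch, rose by 0.75 (SE 0.18) and 0.51 (SE 0.12), or 0.65 and 0.35 in the 8 remaining libraries, and were called in 2 and 3 fits, while the median was -0.02. These 2 calls are 11.8% of the Notch genes, against 1.83% of all tested genes. Of 25 genes of TGF-beta and BMP signalling 1 was called: Id1, a target of BMP signalling, was at 316 to 431 FPKM with saline and 182 to 271 with silica. Its change was -0.53 (SE 0.11, adjusted p = 0.04), or -0.40 in the 8 remaining libraries, it was called in 3 fits, and the median of the list was 0.16.

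Markers of airway epithelium were mostly below 0, and all but 1 did not pass the test. Ciliated cells carry motile cilia built on dynein arms, and all 20 tested markers were below 0, with a median of -0.90, but 1 was called. Dnah12, a dynein heavy chain, was at 10.7 to 36.9 FPKM with saline and 6.87 to 14.4 with silica (change -1.02, SE 0.26, adjusted p = 0.0492; called in 1 fit). Rsph4a, of the radial spoke, had -0.96 (adjusted p = 0.0509) and Dnah9, of the outer dynein arm, -1.05 (adjusted p = 0.0581). In the 8 remaining libraries these genes had -0.50, -0.83 and -0.55, the median of the list was -0.57, and all 20 were still below 0. The summed level of the markers was 1439, 1579, 1244, 1098, 741 and 942 FPKM in saline replicates 1 to 6 and 520 to 909 with silica, so that saline replicate 5 lay inside the silica range.

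Scgb1a1, the secretoglobin of the club cells of the bronchioles, was at 54909, 54629, 37274, 31848, 14784 and 25066 FPKM in saline replicates 1 to 6 and at 9019 to 25614 with silica. Its change was -1.23 (SE 0.44, adjusted p = 0.109), and that of Scgb3a2, another secretoglobin, -1.43 (SE 0.41, adjusted p = 0.0632). None of the 12 tested secretory markers was called; 8 were below 0 and 4 above, the highest at 0.60, with a median of -0.19 with all libraries and -0.70 in the 8 remaining ones. Ciliated and secretory levels were highest in saline replicates 1 and 2, 2 of the 3 saline libraries with a high mitochondrial percent; the share of airway in each piece of lung was not measured, and its part in these values was not tested.

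Most alveolar markers lay on the other side. All 16 tested markers of type 1 cells, the flat cells of gas exchange, were above 0 with a median of 0.44, and 15 were in the 8 remaining libraries, with a median of 0.35. Akap5, an anchoring protein of protein kinase A, rose by 0.86 (SE 0.20, adjusted p = 0.0444), or 0.58 in the 8 remaining libraries, and was called in 3 fits; the other 15 were not called. The list summed to 4055 and 4193 FPKM in saline replicates 1 and 2, to 5723 to 7072 in the other saline libraries, to 4629 in silica replicate 1 and to 6941 to 8217 in the other silica libraries. Of 13 markers of type 2 cells, which make surfactant, 11 were above 0 with a median of 0.39 (0.19 in the 8 remaining libraries) and none was called. Their sum was lowest in saline replicates 1 and 2 and silica replicate 1, at 27752, 28877 and 31865 FPKM, against 38769 to 54355 in the other 9. The group median of this sum was 42168 FPKM with saline and 41815 with silica. Its lowest and highest values were higher with silica, at 31865 and 54355 FPKM against 27752 and 49739 with saline. A difference of the sums was not tested. Of 12 tested basal, squamous and transitional markers Aqp3 alone was called, and the median of 0.41 was -0.15 in the 8 remaining libraries.

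Endothelial markers had 17 of 21 above 0, with a median of 0.25 (0.21 in the 8 remaining libraries). Aplnr, the apelin receptor, rose by 0.51 (SE 0.12, adjusted p = 0.0453), or 0.36 in the 8 remaining libraries, was called in 4 fits, and was the 1 called member. Of 17 fibroblast markers none was called with all libraries or in the 8 remaining ones, where the medians were 0.14 and 0.27. Without silica replicate 1 alone 5 were called, against 390 of all 19152 tested genes. Npnt, a matrix protein of alveolar fibroblasts and epithelium, was closest, at 29.6 to 61.3 FPKM with saline and 40.6 to 102 with silica, a change of 0.87 (adjusted p = 0.0501). It was 0.75 in the 8 remaining libraries, where the lone low silica library, replicate 1, is left out. Pdgfrb, the platelet-derived growth factor receptor of pericytes and fibroblasts, had 0.85 (adjusted p = 0.0649) and 0.90. Smooth muscle and mesothelial markers had 0 called of 13 and 8 tested, and their medians of 0.20 and 0.20 turned to -0.19 and -0.23.

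Immune genes gave few calls. None was called among the 22 markers of alveolar and lipid-handling macrophages, 16 of monocytes and interstitial macrophages, 13 of neutrophils, 23 of T and NK cells, 16 of B and plasma cells, 7 of mast cells, 11 MHC class II genes, 26 chemokines and 24 complement components that were tested. Medians of these lists lay between 0.01 and 0.35 with all libraries and between -0.20 and 0.17 in the 8 remaining ones; the mast cell median stayed above 0 and the other 8 turned below 0 there. Sums of T and NK, neutrophil and monocyte markers were lowest in saline replicate 1, which had 114 FPKM of T and NK markers against 170 to 326 in the other 11 libraries and 79.2 of neutrophil markers against 94.3 to 276, while the sums of alveolar macrophage and B cell markers were lower in saline replicate 6.

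Single genes of immune signalling were called. Nfkb1, the p105 and p50 subunit of NF-kappaB, was at 18.0 to 30.5 FPKM with saline and 27.8 to 37.6 with silica, a rise of 0.53 (SE 0.13, adjusted p = 0.0452) that stood at 0.52 in the 8 remaining libraries, was called in 1 of the 12 fits, and was the 1 called of 20 interleukin-1, TNF and inflammasome genes. Irf9, the DNA-binding subunit of the type I interferon factor ISGF3, was at 0.215, 7.82, 11.7, 1.10, 0.378 and 5.83 FPKM in saline replicates 1 to 6 and at 15.2, 25.0, 18.3, 19.3, 20.9 and 9.41 with silica. Saline values spread over a wide range, and silica replicate 6 was below saline replicate 3. Its rise of 2.29 (SE 0.56, adjusted p = 0.0468) was 2.50 in the 8 remaining libraries and was called in 2 of 12 fits. The other 24 interferon-stimulated genes were not called, with a list median of 0.14 that was -0.04 in the 8 remaining libraries.

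Single stress genes were called, in both directions, and most members of each list were not called. The called shares were 8% lower for the unfolded protein response and 5.26% each way for NRF2 targets. Heat shock genes had 5% higher and lysosomal genes 3.57% higher. Of all tested genes 1.83% were higher and 1.62% lower. Each share rests on 1 or 2 genes, so no list is read as moved. Of 25 genes of the unfolded protein response, Hsp90b1, the endoplasmic reticulum chaperone GRP94, and Atf4, the factor of the integrated stress response, were lower, by -0.88 (SE 0.20, adjusted p = 0.0441) and -0.53 (SE 0.12, adjusted p = 0.0449), with -0.44 and -0.57 in the 8 remaining libraries and calls in 2 and 3 fits. The list as a whole lay on the other side, with 18 of 25 members above 0 and a median of 0.16. Hspa5, the chaperone BiP, was at 0.61 (adjusted p = 0.0842), so that these ER chaperones lay on opposite sides of 0. Hspa4, a co-chaperone of HSP70, rose by 0.35 (SE 0.08, adjusted p = 0.0444), or 0.22 in the 8 remaining libraries, was called in 2 fits, and was the 1 call of 20 heat shock genes. Of 19 targets of NRF2, the antioxidant factor, Gclm, a subunit of the enzyme that starts glutathione synthesis, rose by 0.59 (SE 0.13) and Osgin1 changed by -0.63 (SE 0.16), with 0.43 and -0.62 in the 8 remaining libraries and calls in 2 fits and 1 fit. Scarb2, a lysosomal membrane receptor, rose by 0.76 (SE 0.16, adjusted p = 0.04), or 0.48 in the 8 remaining libraries, was called in 3 fits, and was the 1 call of 28 lysosomal genes.

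Glucocorticoid-responsive genes, induced by the adrenal stress hormone, had 1 of 17 higher, Angptl4, and 1 lower, Fkbp5, a chaperone that feeds back on the receptor. Fkbp5 was at 27, 49.2, 38.5, 18.9, 34.5 and 20.1 FPKM in saline replicates 1 to 6 and at 9.03, 10.4, 14.1, 24.2, 13.6 and 8.43 with silica. Only silica replicate 4 lay inside the saline range. Its change was -1.19 (SE 0.27, adjusted p = 0.0444), or -1.09 in the 8 remaining libraries, and it was called in 3 fits. Tsc22d3, which encodes GILZ, was highest of all in the same silica replicate 4, at 286 FPKM, and at 70.8 to 169 in the other silica libraries against 191 to 270 with saline (change -0.92, adjusted p = 0.0762). Zbtb16, a zinc finger target of the receptor, had the largest difference, -2.03 (SE 0.60, adjusted p = 0.0688), and -2.36 in the 8 remaining libraries, and was called in none of the 12 fits. The list median was -0.29, and 0.02 in the 8 remaining libraries. Of 18 circadian genes none was called; Per2 had -0.85 (adjusted p = 0.0609) and Nr1d1 0.73 (adjusted p = 0.0634).

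Mitochondrially encoded proteins are counted in the percent of mitochondrial reads, so their levels are not a separate result. COX1, a catalytic subunit of cytochrome oxidase, was at 18876 to 67536 FPKM with saline and 14182 to 25651 with silica. The median over 8 tested members was -0.95 (-0.60 in the 8 remaining libraries) and none was called. Some members of this list were listed at values far from the others: ND4, a subunit of complex I, was at 1622 FPKM in saline replicate 5 and at 0.15 to 30.7 in the other 11 libraries, so single mitochondrial genes of this table are not read further. The 30 nuclear subunits of the respiratory chain had a median of 0.18 (-0.04 in the 8 remaining libraries) and no call. Rplp2, an acidic protein of the large ribosomal subunit, changed by -0.84 (SE 0.19, adjusted p = 0.0444), or -0.56 in the 8 remaining libraries, and was called in 2 fits. It was the 1 call of 30 cytosolic ribosomal proteins, whose median was -0.08, and -0.21 in the 8 remaining libraries, where all 30 were below 0. None of 28 cell cycle genes was called.

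**Figure D5:**
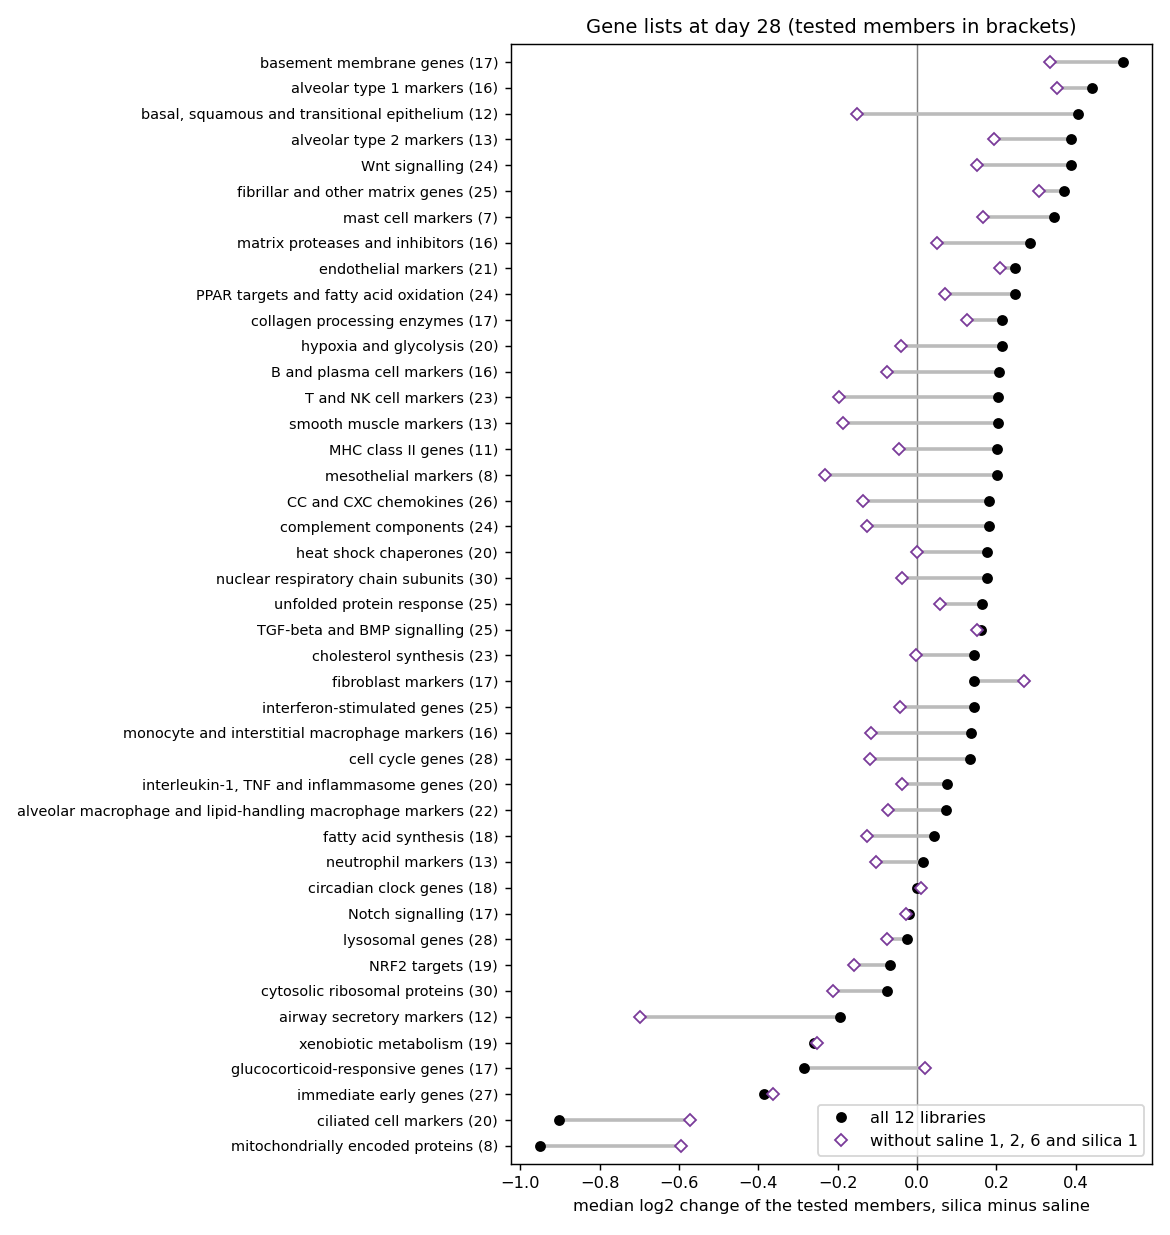
Median log2 change, silica minus saline at day 28, of the tested members of each gene list other than the tissue lists, with all 12 libraries (filled circles) and without saline replicates 1, 2 and 6 and silica replicate 1 (open diamonds); the number of tested members is in brackets. Basement membrane, type 1 cell and matrix genes stay above 0 and ciliated and immediate early genes below 0 in both, while the macrophage, lymphocyte and chemokine lists cross 0.

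The authors' deposited table of the same comparison gives an FDR for 23197 genes, of which 3076, or 13.3%, were under 0.05, with 1337 higher and 1739 lower. The authors' deposited table shared 649 genes with the 660 calls, 98.3% of these and 21.1% of its own, and all 649 had the same direction. Both lists come from the same 12 libraries.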

How the data were processed

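Whole-lung RNA of 12 rats was analysed, 6 given saline and 6 given silica, all at day 28. Libraries were made from RNA selected with poly-T beads, per the labels' protocols. The authors deposited FPKM per gene and library for 32489 gene IDs, and, for the same comparison, columns of log2 fold change, linear fold ratio, p-value and FDR by a tool not given in the sources used here. Of the deposited comparison the FDR and the sign of the log2 fold change were used. The submitters' processing notes name HTSeq 0.9.1, HISAT2 2.1.0, FastQC 0.11.9 and cutadapt 4.0, and the builds Rnor_6.0 and rn6. Strand is not stated, so reads of a gene and an antisense partner cannot be told apart, and reads of near-identical copies may be split. Of the IDs, 7529 had no gene name.

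The FPKM steps gave whole reads for 100% of the 31521 genes with a nonzero value, at a tolerance of 0.02 read. These were used for depth, the mitochondrial percent and 1 alternative test, not for the main test. Gene expression was analysed as log2(FPKM + 1) with limma 3.58.1 (limma-trend, empirical Bayes, two-sided) in R 4.3.3 and Python 3.11.15, in 1 fit of the 12 libraries without covariates. Single values per library were compared by exact permutation tests. The fit was tested on simulated reads of 19152 genes for this comparison: it recovered 32.8%, 64.2% and 92.4% of genes changed 1.5-, 2- and 4-fold, with 4.55% false calls. Genes were drawn independently there, without the mitochondrial and muscle differences that set real libraries apart. The 4.55% is therefore not the share of false calls among the 660. Both the spread between libraries and depth limit the precision of a value, and their parts were not measured.

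The text names the 12 largest rises and 12 largest falls among calls with a mean of at least 1 FPKM, no overlap, an assigned symbol and an unadjusted p under 0.05 in the same direction without saline replicates 1, 2 and 6 and silica replicate 1; the calls with an assigned symbol that were also called there; and, from 49 gene lists of 991 genes (945 matched), called members and up to 5 with the smallest p. The remaining ones are named in the text as picked after their values were seen, as were Egr2, Jun, Atf3 and Nr4a1. The comparison, the lists and the libraries to leave out were chosen with earlier results of these data known. The 27 alternative settings are described in the closing section. The comparison with promoters used RefSeq on GRCr8 and no coordinates of the expression files.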

Additional observations from a re-analysis of the deposited data

Results flagged for a closer look

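Within each group of 6 libraries, a value was picked out where its gap to the nearest other library exceeded Dixon's 95% critical value as a share of the range of the group. Of 72 groups tested 13 met this. The chance rate of about 1 in 20 cannot be set against this count. The genes tested were picked from these same libraries, and the muscle and mitochondrial levels were known beforehand. Most lie in silica replicate 1. There the summed FPKM was 22793 for skeletal muscle markers (others 109 to 132), 4202 for cardiac muscle markers (20.9 to 166) and 229 for thymus and lymph node markers (108 to 136), and the mitochondrial percent was 4.10 (2.13 to 2.70). Single genes set apart in the same library were Aqp3 at 45.5 FPKM (2.46 to 16.7), Mafa at 11.1 (1.24 to 3.70) and Srsf7 at 29.1 (18.8 to 21.9), all highest, and Hsd17b4 at 41.1 (51.8 to 57.8), lowest. Silica replicate 2 was highest for Angptl4 at 13.8 FPKM (4.88 to 7.16) and Dact3 at 10.9 (7.42 to 8.62). Among saline libraries, replicate 6 was highest for Ddhd1 at 9.58 FPKM (3.93 to 5.72), replicate 5 for H1fx at 13.5 (10.8 to 11.7) and replicate 1 for Pik3r2 at 9.24 (3.10 to 5.09).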

How the results depend on the processing

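Of the 660 calls with all libraries (350 higher, 310 lower), settings that kept all 12 libraries gave 548 with a pseudocount of 0.1, 703 with a minimum of 1 FPKM, 848 after quantile normalization, 696 (305 and 391) after scaling to non-mitochondrial reads and 796 after median-ratio scaling. No filter on low values gave 114 (88 higher, 26 lower), an adjusted p under 0.01 gave 36 (30 and 6), array weights 995 (522 and 473), voom on recovered reads 258 (190 and 68), all 24 libraries in 1 fit 2887 (1127 and 1760) and the mitochondrial percent as a covariate 8 (7 and 1). Without saline replicates 1, 2 and 6 there were 30 (25 and 5), without these and silica replicate 1 there were 39 (34 and 5), and without saline replicates 3, 4 and 5 there were 4445 (1769 and 2676). Leaving out 1 library gave 53 to 2582 calls, 44 to 912 higher and 9 to 1670 lower. The cause of these differences was not tested. Leaving out libraries also leaves fewer samples. Fits of equal size gave 30 calls without saline replicates 1, 2 and 6 and 4445 without saline replicates 3, 4 and 5. The groups share replicate numbers: with a replicate block there were 1192 calls, 524 higher and 668 lower, but deviations of same-numbered libraries correlated at only -0.067 to 0.102, with 1 of 6 saline and 1 of 6 silica libraries closest to its own number, and the numbers were read as names of libraries.

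The difference in mitochondrial percent was -2.80 percentage points, between -3.36 and -2.12 without any 1 library and -4.95 as a share of summed FPKM, with exact permutation p between 0.00433 and 0.0130. Of the genes named in the text, 87 were followed through the 27 settings, and none of these changed direction in any. Acta1, named as a muscle marker, was not among them. The skeletal muscle list had 13 of 14 tested members above 0 with all libraries and 7 without silica replicate 1. With the mitochondrial percent as a covariate 66 of the 68 called genes named in the text lost their call, and without the 4 libraries 55 of the 68. All 660 genes kept their direction in both, with a median size of change of 0.57 and 0.59, but both fits reuse libraries that gave the calls. The median moved by more than the spread between libraries in 19 of 49 lists with the covariate and in 8 without these 4 libraries.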
